A study of Mus musculus with 6 samples.

Results

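The genes described here are 10 that belong to, control or respond to the MiT-TFE family of transcription factors, out of 54532 gene identifiers in the deposited tables. They are the 4 factor genes Mitf, Tfeb, Tfe3 and Tfec, the regulator genes Flcn and Rragd, the lysosomal glycoprotein gene Gpnmb, and the TRPML channel genes Mcoln1, Mcoln2 and Mcoln3. They were picked by symbol, with results of the same comparison known: Gpnmb and Mcoln2 had already been seen among its most reduced genes. Their differences between the groups are therefore given as a description, with no p-value.

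Transcript levels were measured by RNA sequencing of poly-A RNA in immortalised mouse bone marrow-derived macrophages (iBMDM), a macrophage line from marrow that keeps dividing in culture. In 3 libraries, the PGAM5 libraries, the cells carried a short hairpin RNA against PGAM5, a phosphatase of mitochondria, and in 3, the DRP1 libraries, a hairpin against DRP1, the GTPase that divides mitochondria. The cells of all 6 libraries had received IL-4 at 10 ng/ml for 24 h. No library with a control hairpin or without IL-4 was analysed here, so a difference between the groups cannot be assigned to either knockdown. The labels give neither the mouse strain nor whether the numbers 1 to 3 stand for separate cultures or for different hairpins, and every p-value given here rests on library-to-library spread alone, which may be technical.

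MiT-TFE proteins bind E-box DNA and switch on genes of lysosomes and autophagy, the set known as the CLEAR network. At the surface of a well-fed lysosome, Rag GTPases hold TFEB and TFE3 close to the kinase complex mTORC1, whose phosphorylation keeps them in the cytosol. FLCN, with its FNIP partners, sets the nucleotide state of RagC and RagD and so takes part in that step, while calcium released by the TRPML1 channel can activate calcineurin, which dephosphorylates TFEB. In macrophages and osteoclasts, MITF and its relatives drive genes of bone resorption and of lysosomes, and GPNMB is a widely used readout of their activity.

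Values are FPKM, fragments scaled to exon length and to the size of the library, so levels of different genes can be set side by side. Depths recovered from the FPKM steps were 16111281 to 21933548 reads per library. Pgam5 measured 4.91 ± 0.31 FPKM (SD, n = 3) with its own hairpin and 17.2 ± 0.14 with the DRP1 hairpin, and Dnm1l, the gene of DRP1, 17.9 ± 0.75 and 7.57 ± 0.55. PGAM5 library 3 stood apart within its group, with a chi-square per gene of 6.72 and 4.82 against libraries 1 and 2, where the other pairs within groups gave 2.45 to 2.92. Of 10 macrophage markers 8 had a mean of at least 1 FPKM, while Mertk and Aif1 did not. Of the other cell types known for MITF, melanocytes had 4 of 6 markers at 0 reads in all 6 libraries, Tyr, Tyrp1 and Dct among them. Mast cells had 3 of 6 at 0, Kit among them, while Cpa3 had 16 reads in the PGAM5 libraries and 43 in the DRP1 libraries. No marker of either type had a mean of at least 1 FPKM. Of 6 osteoclast markers Calcr was at 0 while 3, Ctsk among them, had a mean of at least 1 FPKM. The IL-4 response genes Arg1 and Mrc1 reached at most 0.11 and 0.019 FPKM, and Retnla and Chil3 were at 0.

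The main pattern was a split within the 10 genes. Gpnmb and Mcoln2 were more than 2-fold lower under PGAM5 knockdown than under DRP1 knockdown, whereas the factor genes Mitf, Tfeb and Tfe3 differed by less than 1.1-fold. Flcn and Mcoln1 lay between, 1.14-fold and 1.12-fold lower under PGAM5 knockdown. Mcoln3 and Rragd, at less than 0.3 FPKM in every library and too low to be tested, were also lower in all 3 PGAM5 libraries, and Tfec was at or near 0 reads in both groups.

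**Figure D1:**
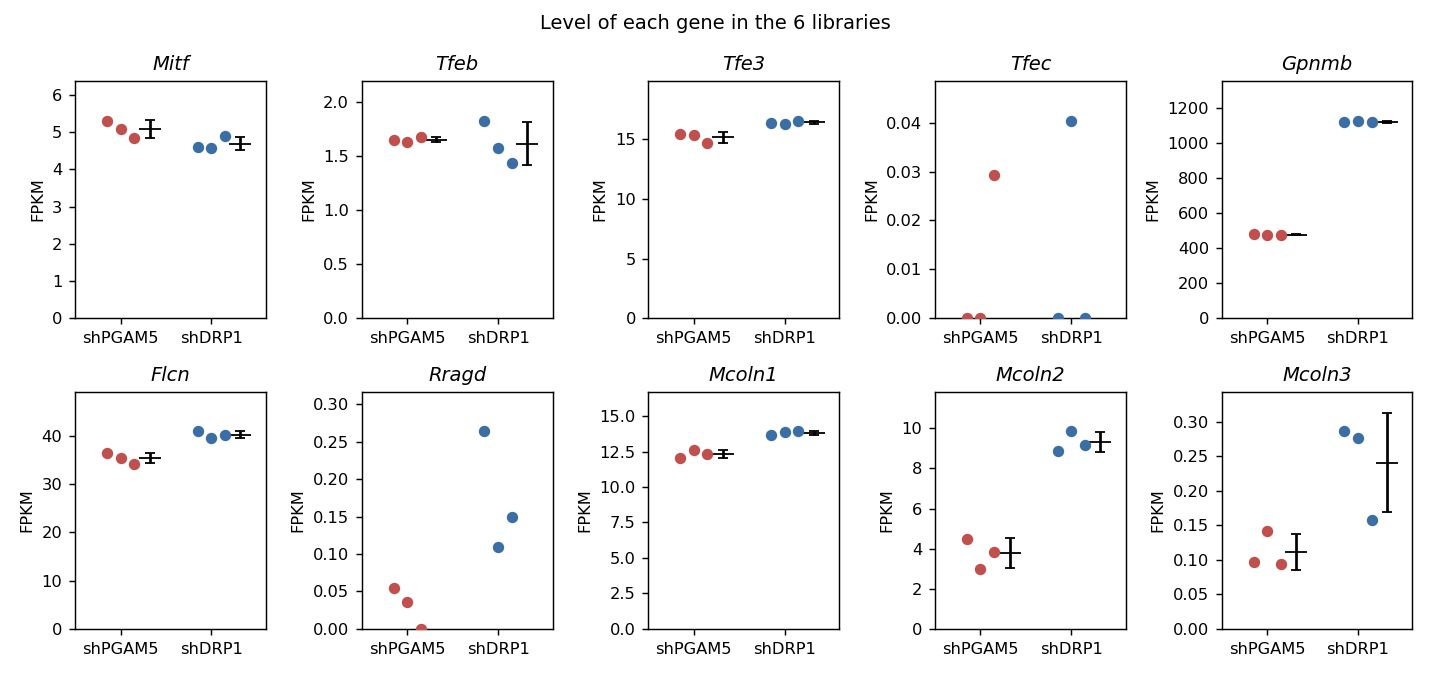
FPKM (vertical axis, from 0) of each of the 10 genes in the 3 PGAM5 knockdown libraries (red) and the 3 DRP1 knockdown libraries (blue), each point a library, with bars for mean and SD except in Tfec and Rragd, where at least 1 library was listed at 0. The groups are far apart in Gpnmb and Mcoln2, narrowly apart in Tfe3, Flcn and Mcoln1, and overlap in Mitf and Tfeb.

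Tfe3 (ENSMUSG00000000134, chromosome X, 7762560 to 7775202, plus strand, mm10) was the most abundant factor gene. It measured 15.5, 15.4 and 14.7 FPKM across PGAM5 libraries 1 to 3 and 16.4, 16.3 and 16.6 under DRP1 knockdown. Every PGAM5 library was lower than every DRP1 library, but the step was small, with a difference of -0.11 ± 0.035 (SE) on the log2(FPKM + 1) scale. It did not pass the threshold of an adjusted p of 0.05 used for all genes, and passed it under quantile normalization (-0.12), upper quartile scaling (-0.14) and limma-voom (-0.12).

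Mitf (ENSMUSG00000035158, chromosome 6, 97807052 to 98021349, plus strand) encodes the founding member of the family. It stood at 5.31, 5.09 and 4.86 FPKM against 4.61, 4.58 and 4.90. The groups overlapped, since PGAM5 library 3 lay under DRP1 library 3, and the difference was 0.095 ± 0.051 (SE). Mitf has several promoters that give different first exons, and these gene-level values do not separate them.

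Tfeb (ENSMUSG00000023990, chromosome 17, 47737030 to 47792419, plus strand) encodes the family member most studied as a regulator of lysosomes. Its level was 1.65, 1.63 and 1.68 FPKM under PGAM5 knockdown and 1.83, 1.58 and 1.44 under DRP1 knockdown. All PGAM5 knockdown values fell inside the range of the DRP1 knockdown, with a difference of 0.023 ± 0.077 (SE) that turned to -0.026 without DRP1 library 3. Tfec (ENSMUSG00000029553, chromosome 6, 16833373 to 16898441, minus strand), a family member of myeloid cells, had 3 reads in PGAM5 library 3, 4 in DRP1 library 2 and 0 in the other 4 libraries. Taking 3 reads as the floor, its detection limit was 0.024 to 0.033 FPKM, a limit that covers counting error only.

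Added together, the 4 factor genes came to 21.9 ± 0.61 FPKM under PGAM5 knockdown and 22.7 ± 0.21 under DRP1 knockdown. Tfe3 supplied 69.2 ± 0.33% of that sum under PGAM5 knockdown and 72.2 ± 0.37% under DRP1 knockdown, Mitf 23.2 ± 0.45% and 20.6 ± 0.64%, and Tfeb 7.54 ± 0.30% and 7.10 ± 0.87%. The order Tfe3, Mitf, Tfeb held in both groups with no overlap between neighbours. The Tfe3 share was lower and the Mitf share higher in every PGAM5 library than in every DRP1 library, while the Tfeb shares overlapped.

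Flcn (ENSMUSG00000032633, chromosome 11, 59791408 to 59810016, minus strand) encodes folliculin, which with FNIP1 or FNIP2 acts on RagC and RagD. It measured 36.5, 35.4 and 34.2 FPKM under PGAM5 knockdown and 40.9, 39.5 and 40.2 under DRP1 knockdown. The groups did not overlap, and the difference was -0.18 ± 0.034 (SE). Flcn was the second most abundant of the 10 genes in both groups, after Gpnmb.

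Rragd (ENSMUSG00000028278, chromosome 4, 32983037 to 33022180, plus strand), the gene of RagD, is known as a MiT-TFE target that feeds back on mTORC1. It had 5, 3 and 0 reads across the PGAM5 libraries and 22, 10 and 17 under DRP1 knockdown, or at most 0.054 and 0.26 FPKM. The groups were apart at a very low level. Per read sequenced it was 5.76-fold lower under PGAM5 knockdown, with an exact 95% interval of 2.71 to 14.1 that covers counting error only. Its close relative Rragc was far more abundant, at 67.5 ± 1.88 against 71.9 ± 0.26 FPKM, and did not pass the test.

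Gpnmb (ENSMUSG00000029816, chromosome 6, 49036546 to 49070929, plus strand) was by far the most abundant of the 10. It stood at 483, 475 and 476 FPKM across PGAM5 libraries 1 to 3 and at 1119, 1129 and 1121 under DRP1 knockdown. Libraries of a group differed little beside the step between the groups, which was 2.35-fold, a difference of -1.23 ± 0.024 (SE). Gpnmb ranked 83rd of 54532 genes by mean FPKM under PGAM5 knockdown and 21st under DRP1 knockdown. It took 0.125% and 0.303% of the summed FPKM, on 163212 and 407606 reads over the 3 libraries of each group. Among 10634 tested genes, 8 had a lower difference than Gpnmb.

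Of the 10 macrophage markers 8 were tested, of which 4 fell, 0 rose and 4 did not pass, where 11.7% of all tested genes fell and 13.8% rose. Csf1r (139 against 212 FPKM), Cd68 (501 against 682), Lyz2 (1272 against 1954) and Fcgr1 (29.4 against 34.4) fell. Those that did not pass were Spi1 (193 against 191), Adgre1 (43.9 against 43.4), Cd14 (1649 against 1709) and Itgam (3.88 against 4.38). The summed level of the 10 was 3764 to 3934 FPKM under PGAM5 knockdown and 4814 to 4857 under DRP1 knockdown. Its part in the levels of Gpnmb and the lysosomal genes was not tested. In RNA from whole cultures, fewer cells of a kind and less RNA per cell cannot be told apart.

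Mcoln1 (ENSMUSG00000004567, chromosome 8, 3500457 to 3515232, plus strand) encodes TRPML1, the calcium channel of lysosomes found in most cells and a known CLEAR gene. It measured 12.04, 12.6 and 12.3 FPKM under PGAM5 knockdown and 13.7, 13.9 and 13.9 under DRP1 knockdown. The groups were apart by a small margin, with a difference of -0.15 ± 0.035 (SE). Its call was lost on leaving out DRP1 library 1, 2 or 3, where the differences were -0.16, -0.15 and -0.15.

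Mcoln2 (ENSMUSG00000011008, chromosome 3, 146149833 to 146195513, plus strand) encodes TRPML2, an endolysosomal channel of immune cells. Its level was 4.49, 3.00 and 3.85 FPKM under PGAM5 knockdown and 8.89, 9.85 and 9.19 under DRP1 knockdown. The lowest DRP1 library was well above the highest PGAM5 library, and the means differed 2.46-fold, a difference of -1.12 ± 0.11 (SE). Only 10 of the 10634 tested genes had a lower difference. Over the 14 alternatives tried it ranged from -1.31 to -0.998.

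Mcoln3 (ENSMUSG00000036853, chromosome 3, 146117450 to 146141806, plus strand), the gene of TRPML3, ends 8.03 kb before Mcoln2 on the same strand. It had 6, 8 and 6 reads under PGAM5 knockdown and 16, 17 and 12 under DRP1 knockdown, or 0.097, 0.14 and 0.095 against 0.29, 0.28 and 0.16 FPKM. All 3 PGAM5 libraries were lower, on few reads. Per read sequenced the level was 2.12-fold lower under PGAM5 knockdown, with an exact 95% interval of 1.22 to 3.78 for counting error only. Mcoln3 and Rragd lay below the filter of a mean of 1 FPKM and were not tested, as was Tfec.

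The mix of channel transcripts differed between the groups. Mcoln2 made up 26.98%, 19.0% and 23.7% of the summed TRPML FPKM across the PGAM5 libraries and 38.9%, 41.0% and 39.5% under DRP1 knockdown. Mcoln1 supplied 76.1 ± 3.83% and 59.1 ± 1.17%, and Mcoln3 0.69 ± 0.18% and 1.03 ± 0.31%. The sum itself was 16.2 ± 0.44 against 23.4 ± 0.59 FPKM, and most of that gap lay in Mcoln2. In the order of all 10 genes, Mcoln2 stood above Mitf under DRP1 knockdown and below it under PGAM5 knockdown, with no overlap in either group. Neighbours in the order overlapped only for Rragd with Tfec under PGAM5 knockdown and Mcoln3 with Rragd under DRP1 knockdown.

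**Figure D2:**
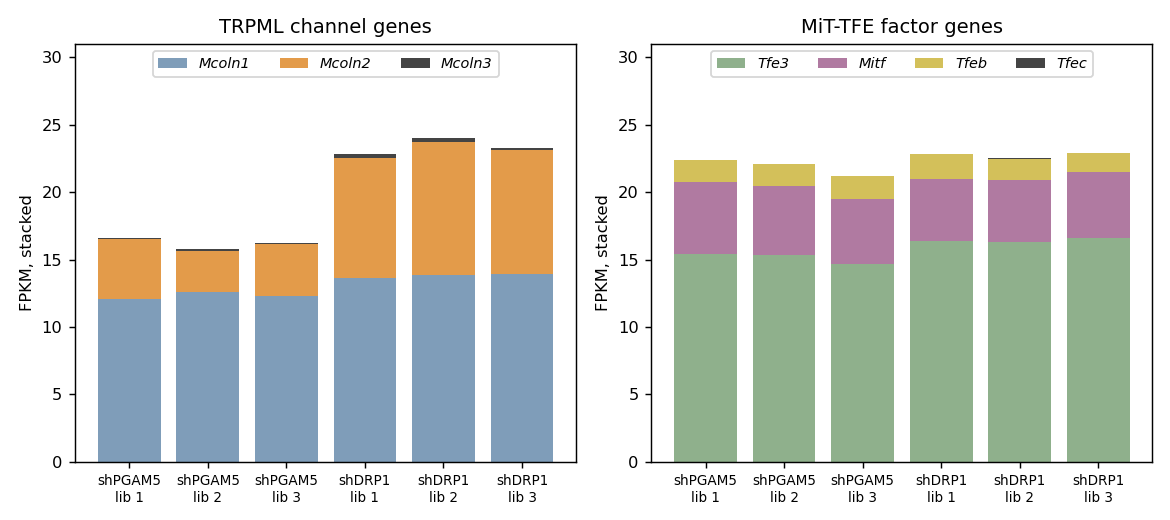
Stacked FPKM of the TRPML channel genes (left) and of the MiT-TFE factor genes (right), with 1 bar per library. The Mcoln2 part is 3.00 to 4.49 FPKM in the PGAM5 knockdown and 8.89 to 9.85 in the DRP1 knockdown, while the factor sum stays at 21.2 to 22.9 FPKM in all 6 libraries.

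Of the 10 genes 7 passed the filter on low values and were tested with all others. Of these 7, 0 were called higher and 4 lower under PGAM5 knockdown (Gpnmb, Mcoln2, Flcn and Mcoln1), and Mitf, Tfeb and Tfe3 were not called. Among all tested genes 25.4% were called in either direction and 11.7% were called lower. Of the 7, 5 had groups that did not overlap, each lower under PGAM5 knockdown, where 20.5% of tested genes had groups apart in that direction, 23% in the other and 43.5% in either. The untested Rragd and Mcoln3 also had groups apart, and Tfec did not. Since the comparison that chose the genes is the comparison counted, these numbers only describe the set.

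**Figure D3:**
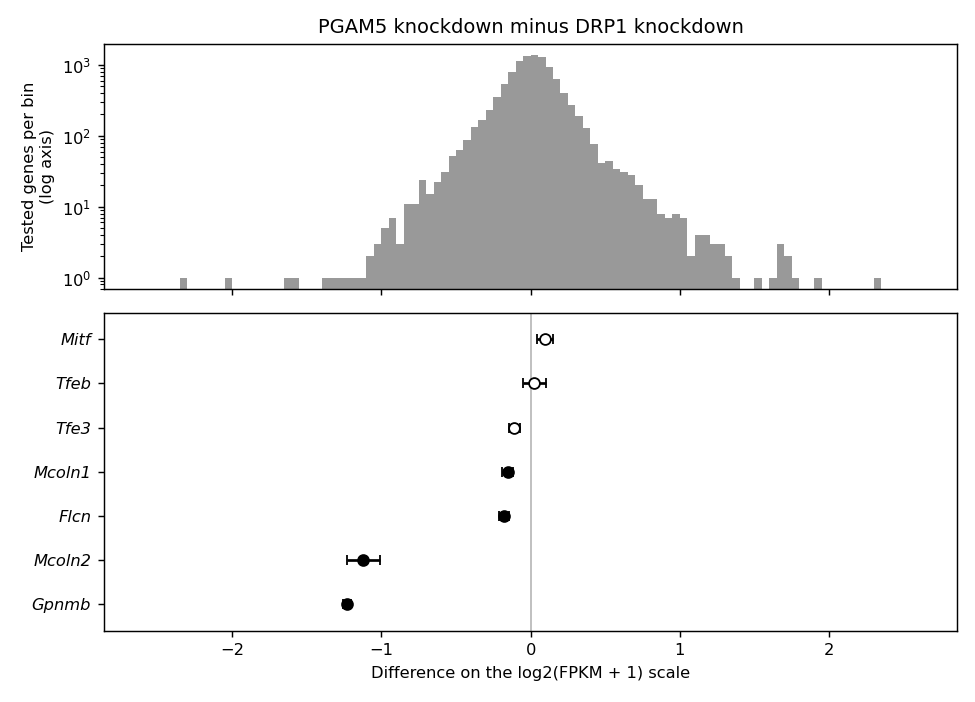
Top, number of tested genes (log axis) in bins of the difference on the log2(FPKM + 1) scale, PGAM5 knockdown minus DRP1 knockdown. Bottom, the same difference with its SE for the 7 tested genes of the set, filled where called in the fit over all genes. Gpnmb (-1.23) and Mcoln2 (-1.12) lie in the far left tail and the factor genes near 0.

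The E-box CACGTG, the core of the CLEAR element, was searched on both strands in RefSeq promoter windows of 300 bases, 250 before to 50 after each gene start (GRCm38.p6). All 10 genes had a window, 15 windows in all, and 2 of these held the motif: that of Mcoln1 at 2 places and that of Mcoln2 at 1. Of 32851 windows of all genes 7.15% held CACGTG. The longer TCACGTG, which overlaps it, was in the Mcoln1 window only among the 10 genes and in 3.77% of all windows. The M-box TCATGTG, a form bound by MITF, was in none of the 15 and in 3.77% of all windows. The 10-base palindromic CLEAR consensus was in none of the 15 and in 0.326% of all. Of 46 lysosomal CLEAR genes (listed further on) with a window, 39.1% held CACGTG, beside 8.09% of 27025 genes. Since CLEAR genes are grouped partly by this element, that higher share is no test. The 3 windows below are shown because Gpnmb and Mcoln2 had the largest differences among the 7 tested genes of the set and Mcoln1 is the family's known CLEAR gene, with CACGTG in capitals. The Mcoln1 stretch is chr8:3500307-3500456, from 212 to 63 bases before the RefSeq start, with the second motif given as the 30 bases of chr8:3500459-3500488. The Mcoln2 stretch is chr3:146150024-146150173 and the Gpnmb stretch chr6:49036368-49036517, each the last 150 bases before the RefSeq start, all on the plus strand, 5′ to 3′. The RefSeq start of Mcoln2 lies within the GENCODE gene, whose first transcript begins further upstream, and the Mcoln2 stretch shown is inside that gene. The RefSeq start of Mcoln1 (3500519) also lies within its GENCODE gene, which begins at 3500457. The second Mcoln1 motif (3500474 to 3500479) is thus inside that gene, and the first (3500448 to 3500453) is before it.
Mcoln1: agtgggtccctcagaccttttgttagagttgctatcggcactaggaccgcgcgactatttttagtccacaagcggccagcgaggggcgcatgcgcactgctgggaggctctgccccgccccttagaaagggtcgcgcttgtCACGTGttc
Mcoln1, second motif: ttcaggcgccccgctCACGTGaccgcggcg
Mcoln2: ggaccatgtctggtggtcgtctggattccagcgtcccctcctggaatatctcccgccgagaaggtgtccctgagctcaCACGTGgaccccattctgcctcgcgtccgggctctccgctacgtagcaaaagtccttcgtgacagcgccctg
Gpnmb: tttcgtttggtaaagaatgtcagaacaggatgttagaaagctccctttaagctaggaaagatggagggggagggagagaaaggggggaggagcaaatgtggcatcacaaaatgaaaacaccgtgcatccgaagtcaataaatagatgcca

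The windows also differed in base composition, with 65.0% G and C in that of Mcoln1, 66.3% in that of Mcoln2 and 47.7% in that of Gpnmb. They held 30, 26 and 9 CpG pairs. The windows of Mcoln1 and Mcoln2 both held CACGTG, as part of TCACGTG in Mcoln1 only. Any part of the motif or of base composition in the differences between the groups was not tested. A match is no evidence of binding, and a window without one says nothing on sites elsewhere.

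Other genes of the pathway were taken as lists, written from textbook knowledge with earlier results of these data known. Across all 10634 tested genes 13.8% rose and 11.7% fell, with a median difference of 0.0094. Lists are described by counts and medians, beside these values.

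Lysosomal CLEAR targets were mostly lower under PGAM5 knockdown. Of 61 genes 60 were tested, of which 3 rose, 35 fell and 22 did not pass, with a median difference of -0.15. Cathepsin D (Ctsd, a main lysosomal protease) fell by 0.47 on the log2 scale, at 446 ± 9.75 against 616 ± 16.6 FPKM (limma adjusted p = 0.0001). Ctsf, another cathepsin gene, fell by 0.56, and Atp6ap2, an accessory subunit of the proton pump, by 0.44 (64.7 ± 2.95 against 87.9 ± 0.70 FPKM, limma adjusted p = 0.00027). Among the 16 genes of this list for the pump and its accessory subunits, with symbols beginning in Atp6, 9 fell, 0 rose and 7 did not pass. The list does not hold every such gene.

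Calls in the other direction came from Hgsnat, Ppt1 and Ctsl. Hgsnat, an enzyme of heparan sulfate breakdown, stood at 31.4 ± 1.63 against 18.8 ± 0.62 FPKM, a rise of 0.71 (limma adjusted p = 8.8e-05). Ppt1, a palmitoyl-protein thioesterase, rose by 0.23 and Ctsl by 0.16. The Ctsl call was lost in 6 of 14 alternatives, among them leaving out DRP1 library 1, 2 or 3. With 1 library left out at a time, 31 to 39 genes of the list were called, in place of 38.

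**Figure D4:**
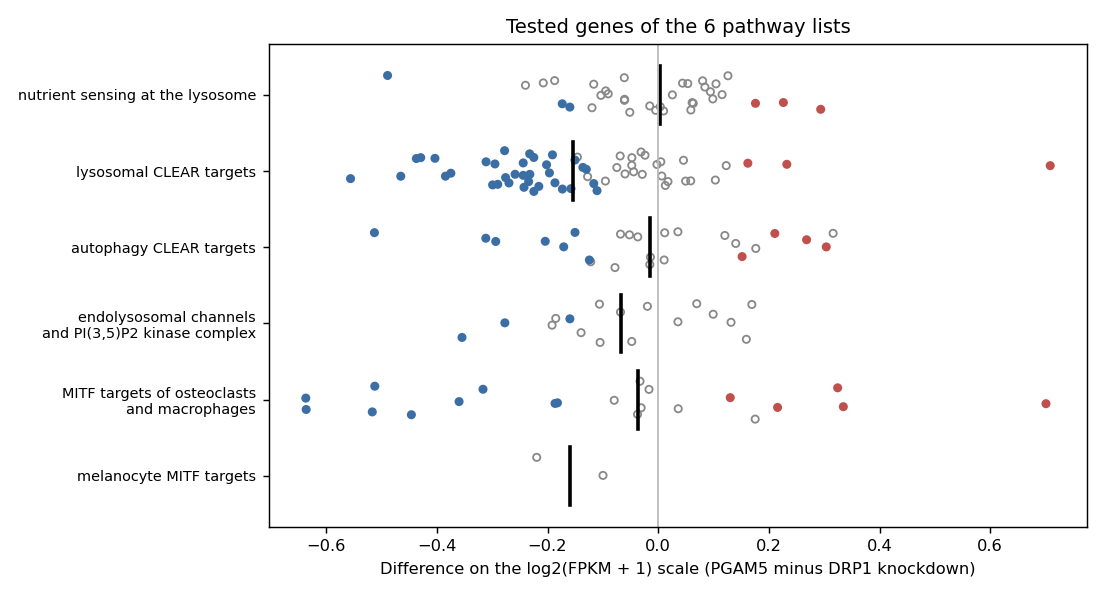
Difference on the log2(FPKM + 1) scale (horizontal axis) for each tested gene of the 6 lists, blue where it fell, red where it rose, open where not called, with a black line at the list's median. The lysosomal list has its median at -0.15, with 35 of 60 genes called lower, while the nutrient-sensing list is centred on 0.0037.

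Genes of nutrient sensing at the lysosome, which act upstream of the factors, showed few changes. Of 37 genes 35 were tested, 3 rose, 3 fell and 29 did not pass, with a median of 0.0037. Both partners of folliculin fell with Flcn, Fnip1 at 15.3 ± 0.92 against 17.2 ± 0.35 FPKM (limma adjusted p = 0.048, log2 difference -0.16) and Fnip2 at 57.7 ± 3.17 against 65.2 ± 0.61 (-0.17, 0.022). Lamtor2, a Ragulator subunit that anchors Rag GTPases, fell most (32.8 ± 5.01 against 46.1 ± 2.04 FPKM, -0.49, limma adjusted p = 0.011).

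Sec13, shared by GATOR2 and vesicle coats, rose by 0.29, Itfg2 by 0.23 and Rraga, the gene of RagA, by 0.18. Mtor (9.55 ± 0.81 against 8.93 ± 0.15 FPKM), Rptor and the calcineurin genes Ppp3ca, Ppp3cb and Ppp3r1 did not pass. With 1 library left out at a time, 2 to 10 genes of the list were called. The Fnip1 call was lost on leaving out PGAM5 library 2 or 3 or any DRP1 library, and that of Fnip2 without DRP1 library 1, 2 or 3. Rraga was no longer called on leaving out PGAM5 library 1 or 2, or DRP1 library 1 or 3. Itfg2 lost it without PGAM5 library 2 or DRP1 library 2 or 3. Their directions held in all 14 alternatives, with differences of -0.20 to -0.11 for Fnip1, -0.20 to -0.13 for Fnip2, 0.13 to 0.22 for Rraga and 0.19 to 0.26 for Itfg2.

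Autophagy genes, a list not limited to established CLEAR targets, changed in both directions. Of the 27 genes 25 were tested. Of these 4 rose and 7 fell, while 14 did not pass, and the median was -0.015. Atg13, a subunit of the initiating ULK1 complex, stood at 80.5 ± 2.41 against 98.9 ± 0.19 FPKM (limma adjusted p = 0.00063, log2 difference -0.29). Rubcnl (-0.51) and the tethering gene Vps8 (-0.31) fell, and Atg9b (0.30), Gabarapl2 (0.27) and Wipi2 (0.21) rose. Without PGAM5 library 2 or DRP1 library 2 the list gave 7 and 6 calls in place of 11, and leaving out either of these ended the Atg9b call.

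Other endolysosomal channels that were tested did not share the step seen in Mcoln2. Of 17 tested channel genes and genes of the PIKfyve complex, which makes the lipid that opens TRPML channels, 0 rose, 3 fell and 14 did not pass. The chloride-proton exchanger gene Clcn5 fell by 0.35 (2.84 ± 0.30 against 3.91 ± 0.20 FPKM, limma adjusted p = 0.011) and Fig4, of the PIKfyve complex, by 0.28. Pikfyve itself measured 3.66 ± 0.07 against 4.20 ± 0.08 FPKM (log2 difference -0.16), a call lost when any 1 of the 6 libraries was left out. The 2-pore channel genes Tpcn1 (0.13) and Tpcn2 (-0.19) did not pass. Trpm2 and Kcnma1 lay below the filter and were not tested. Trpm2 was higher in every PGAM5 library than in every DRP1 library, at 0.51 against 0.22 FPKM (336 against 154 reads). That is 2.32-fold, in the direction opposite to Mcoln2, while the groups overlapped in Kcnma1.

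A list of MITF targets or partners in osteoclasts and macrophages, together with genes of lipid-handling macrophages, split. It was not limited to established MITF targets, and Cd36, Lpl, Cpt1a and Abca1 were on it. Of 29 genes 21 were tested, 5 rose, 9 fell and 7 did not pass, with a median of -0.037. Ctsk, the collagen-degrading protease of osteoclasts, stood at 96.6 ± 2.86 against 151 ± 1.88 FPKM (limma adjusted p = 2.8e-05, log2 difference -0.64), and Slc11a1, a metal transporter of phagosomes, at 31.1 ± 1.29 against 48.8 ± 0.44 (-0.64). Ppargc1b fell by 0.52, a call lost on leaving out DRP1 library 1 or 2.

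Mmp9, a gelatinase, rose instead (3.16 ± 0.36 against 1.56 ± 0.27 FPKM, limma adjusted p = 0.0030, log2 difference 0.70), as did Fabp5 (0.32) and Dcstamp (0.33), a cell fusion gene. The Dcstamp call was lost on leaving out PGAM5 library 3, or DRP1 library 1, 2 or 3. Acp5, Spp1 and Trem2 did not pass, and without DRP1 library 1 the list gave 9 calls in place of 14.

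Melanocyte targets of MITF were mostly low. Of 16 genes 14 lay below the filter, some of them, such as Tyr, Tyrp1 and Dct, at 0 reads in every library. Slc24a5, the most abundant, measured 19.9 ± 0.21 against 21.4 ± 1.16 FPKM, and neither it nor Trpm1 passed in limma, where without trend and with limma-voom 1 gene of the list was called. Pmel, a close relative of Gpnmb, had 3, 4 and 0 reads against 1, 2 and 1.

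Genes beside Gpnmb and Mcoln2 were measured to see whether the step extended along the chromosome. Around Gpnmb, 14 other tested genes had their start within 1 Mb, of which 2 rose and 2 fell. Tmem176a, the nearest tested gene on 1 side, rose (11.1 ± 0.57 against 7.17 ± 0.71 FPKM, limma adjusted p = 0.0015, log2 difference 0.57). Gm19253, a processed pseudogene that begins 0.701 kb past the end of Gpnmb on the same strand, fell by 0.97, at 4.03, 3.19 and 1.96 against 7.48, 5.89 and 6.98 FPKM on 49 against 116 reads. Its fold of 2.22 was close to the 2.35 of Gpnmb, and whether its reads come from its own transcript or from RNA running past the end of Gpnmb was not tested.

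Around Mcoln2, 10 other tested genes had their start within 1 Mb, of which 1 rose and 1 fell, with differences of -0.26 to 0.23. The adjacent Mcoln3, below the filter and so not among them, was lower in all 3 PGAM5 libraries (20 against 45 reads). The nearest tested genes were 2410004B18Rik (-0.013) and Ssx2ip (0.23), the latter with a call lost on leaving out PGAM5 library 1, 2 or 3, or DRP1 library 2 or 3. Beside Mcoln1, Zfp358 fell by 0.31, a call lost on leaving out any of the PGAM5 libraries or DRP1 library 1 or 3, and Pnpla6 (0.0039) did not pass. Beside Flcn, Mprip rose by 0.22 and the antisense neighbour Gm16062 (1.40 ± 0.28 against 1.74 ± 0.30 FPKM) did not pass. The Mprip call was lost on leaving out PGAM5 library 1 or 2, or DRP1 library 1, 2 or 3.

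**Figure D5:**
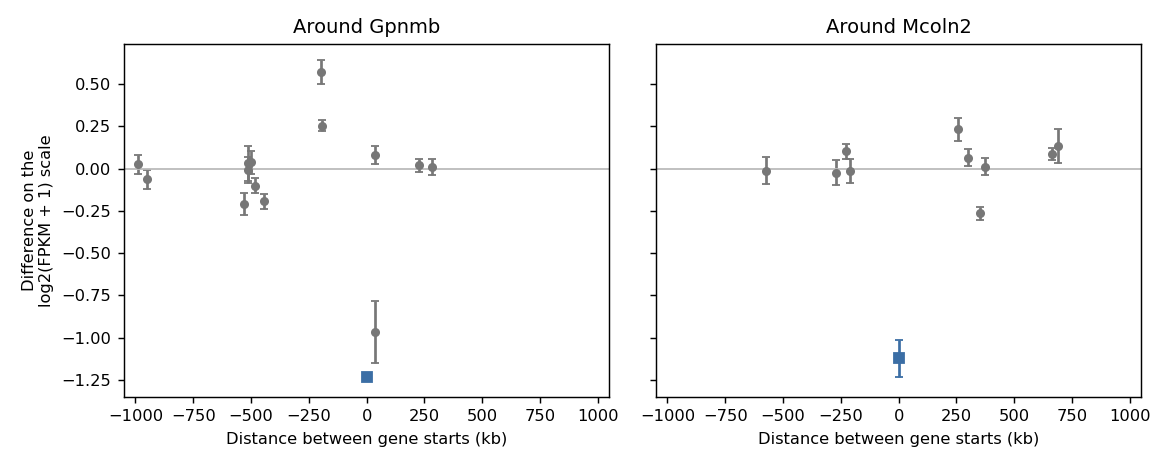
Difference on the log2(FPKM + 1) scale with its SE (vertical axis) against the distance in kb between gene starts, for tested genes around Gpnmb (left) and Mcoln2 (right), each shown as a blue square at 0. Gm19253, at -0.97, lies far below the other genes around Gpnmb, and all tested genes around Mcoln2 lie between -0.26 and 0.23.

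The genes most like Gpnmb over the 6 libraries were sought by Pearson correlation of log2(FPKM + 1) among 6742 genes with a mean of at least 5 FPKM. With 2 groups of 3, such an r mostly measures the step between groups: 463 genes had an r over 0.95 with Gpnmb, so it is given as a description. The 5 closest were Litaf (62.8 ± 1.00 against 101 ± 0.45 FPKM), Hk3, Cd33 (10.7 ± 0.45 against 23.7 ± 0.16), Dnmt3a and Pgam5, with r from 0.998 to 0.9995.

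For Mcoln2, where 328 genes had an r over 0.95, the closest were Nrde2, Nploc4, Igsf6, Pld3 and Rnf128, with r from 0.995 to 0.999. Their differences were smaller, from -0.15 (Nploc4) to -0.49 (Rnf128). For Mitf only 25 genes had an r over 0.95, led by Chtf8, Casc3, Klf2, Epb41 and Got2. None of these 5 was called in limma over all libraries, while Casc3 and Klf2 were called without PGAM5 library 3.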

How the data were processed

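The series held 6 RNA libraries, 3 per knocked-down gene, grouped by the sample titles. The deposited values are FPKM per gene, made by the authors with HISAT2 2.0.5 and featureCounts 1.5.0-p3 on mm10, per the submitters' processing notes. Not given in the sources used here: annotation release, FPKM formula and strand setting. Symbols, coordinates and exonic lengths came from GENCODE M21 on the same build, which matched 54495 of 54532 identifiers.

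FPKM times exonic length gave whole reads within 0.02 for 96.1% of values above 0 in each library. These reads give the depths, the detection limits (3 reads) and the exact binomial intervals at 95%, which cover counting error only. Genes with a mean of at least 1 FPKM over all libraries were tested on log2(FPKM + 1) in limma 3.58.1 (R 4.3.3, trended empirical Bayes, two-sided, Benjamini-Hochberg over 10634 genes, threshold 0.05). Differences are PGAM5 knockdown minus DRP1 knockdown, and this scale understates changes of low genes. The main fit was also run on simulated data with known changes. Fewer genes were changed there than were called here, with the same spread setting for all genes.

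The 10 genes and the lists were chosen with earlier results of these data known. Named genes are the 10, the targets, per list and direction up to 3 called genes without overlap, by size of difference (the most abundant if none passed), neighbours of called genes and the 5 closest patterns (Gm and Rik symbols left out). Any other gene was named with its values already seen. No other gene matched the longest transcript of any of the 10 at 97% identity over 100 bases (blastn 2.17.0). Alternatives were another pseudocount (0.1) or filter, quantile and upper quartile scaling, no trend, a replicate block, limma-voom on recovered reads, and leaving out each library.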

Additional observations from a re-analysis of the deposited data

How the results depend on the processing

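Of the 7 tested genes of the set, Gpnmb (-1.29 to -1.23), Mcoln2 (-1.31 to -0.998) and Flcn (-0.21 to -0.16) kept their direction and call under all 14 alternatives run. Mcoln1 (-0.18 to -0.14) kept its direction and Mitf (0.069 to 0.12) its direction and lack of a call. Tfeb turned from 0.023 to -0.026 without DRP1 library 3, and ranged up to 0.081 with 1 library left out. The share of calls that were higher was 54.1%, and 44.6% under upper quartile scaling, 49.0% under quantile normalization.

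With each library left out in turn, the number of genes called ranged from 1798 to 2738 over all genes (2704 with all 6). It was 3 to 4 in the set, 2 to 10 for nutrient sensing (6 with all) and 31 to 39 for lysosomal targets (38). For autophagy it was 6 to 12 (11), for channels 2 to 3 (3) and for osteoclast and macrophage genes 9 to 13 (14). Without the expression filter 3 nutrient-sensing genes were called. Channel genes called were 5 without trend and 6 with limma-voom, and melanocyte genes called were 1 in both in place of 0. With the replicate block 7 autophagy genes were called in place of 11, and 2133 genes in all. There was no sign that replicate numbers pair the libraries. Deviations of same-numbered libraries correlated at 0.021, 0.031 and -0.00034, and those of other pairs across the groups at -0.068 to 0.041. Such values cannot exclude that libraries were handled in pairs. The cause of these shifts was not tested.

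Differences near 0 reversed in Got2 (-0.011 under quantile normalization) and Pnpla6 (-0.019 under upper quartile scaling, -0.0039 with limma-voom). With 1 library left out, Pnpla6 ranged from -0.032 to 0.054, reversed in 4 of 6 cases, and 2410004B18Rik from -0.077 to 0.026, reversed in 4 of 6. Depth limits Tfec, Rragd and Mcoln3, at 7, 57 and 65 reads over all libraries.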
